A study of Mus musculus with 2 samples.

Results

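The genes described here make, fold and cross-link collagen: the prolyl 4-hydroxylase alpha subunits P4ha1, P4ha2 and P4ha3, the lysyl hydroxylases Plod1, Plod2 and Plod3, the collagen chaperone Serpinh1, and the lysyl oxidases Lox, Loxl1 and Loxl2. They were taken by gene symbol from a table of 30385 entries, in which each of the 10 had 1 entry. The series measured heart RNA by 5′RNA-seq, in which uncut polyA RNA is sequenced so that reads gather near transcript starts. Its 2 libraries came from hearts of wild-type mice (WT) and of MHC403/+ mice, the latter heterozygous for a human missense mutation placed in the myosin heavy chain and a model of hypertrophic cardiomyopathy. All mice, of the 129/SvEv strain and aged 8 to 16 weeks, received subcutaneous CsA (cyclosporine A), 15 mg/kg in 2 daily injections over 2 weeks, so no library was free of the drug. Replicate hearts were pooled before sequencing, the sources used here do not give the size of a pool, and no difference has a replicate check. The libraries held 5468677 reads (MHC403) and 5481123 reads (WT).

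Collagen chains are modified in the endoplasmic reticulum before they leave the cell. Prolyl 4-hydroxylase, a tetramer of alpha subunits and protein disulfide isomerase, hydroxylates proline so that the triple helix is stable at body temperature, and lysyl hydroxylases act on lysines that later carry sugars and cross-links. Both enzyme groups need iron, 2-oxoglutarate, oxygen and ascorbate. Serpinh1, also known as HSP47, binds folded procollagen in the endoplasmic reticulum and accompanies it towards the Golgi. Outside the cell, lysyl oxidases, which are copper enzymes, oxidise lysine and hydroxylysine to aldehydes from which the covalent cross-links of collagen and elastin form. In the heart, fibroblasts are the main source of fibrillar collagen, and cross-linking is known to stiffen scarred myocardium.

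All 10 genes had more reads in the MHC403 library than in WT, as did most entries with enough reads to be measured. Among the measured genes the 3 lysyl oxidases differed by far the most. A ratio here is MHC403 over WT after scaling to the library totals, and the range after it is an exact (Clopper-Pearson) 95% counting interval, which covers counting error only. An entry counts as measured where the higher of its 2 libraries has 50 reads or more. Of the 10 genes 9 were measured: 8 had at least 50 reads in both libraries, Lox passed through the MHC403 library only, and P4ha3 did not pass. Of the 9, 5 were at least 2-fold higher in MHC403 (Plod3, Serpinh1, Lox, Loxl1 and Loxl2) and none was at least 2-fold lower, where 26.1% of all 9507 measured entries were at least 2-fold higher and 2.43% at least 2-fold lower. The median log2 ratio of the 9 was 1.40, beside 0.57 (1.48-fold) over all measured entries. The lower quartile of all measured entries was a ratio of 1.11, so a ratio above 1 was common to most of them. Because so many entries were higher in MHC403, median-of-ratios scaling lowers every log2 ratio by 0.57. Under it 4 of the 9 passed 2-fold upwards, beside 10.5% of all measured entries, and none downwards, beside 7.91%; Serpinh1 was the gene that dropped out. TMM scaling also left 4 higher (10.9% of all entries) and 0 lower (7.55%), and totals without mitochondrially encoded entries left 5 higher (16.1%) and 0 lower (4.21%). With scaling to library totals, all 9 intervals lay wholly above 1, as did 63.2% of all measured entries, with 10.3% wholly below. Of the 9, 6 lay wholly above the median ratio, as did 28.4% of all. At 1.5-fold, 7 of the 9 passed upwards, as did 49.1% of all.

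**Figure D1:**
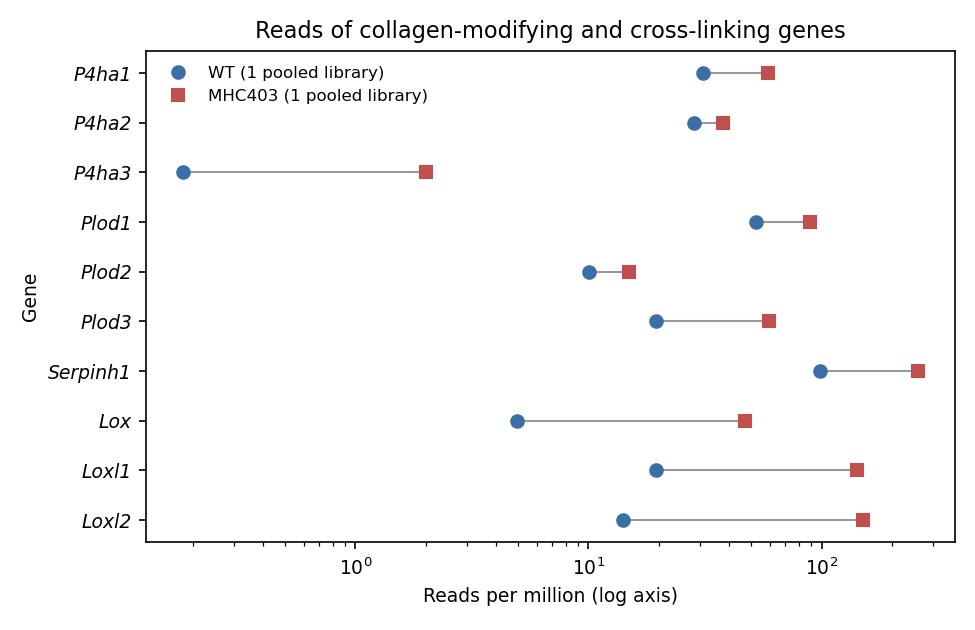
Scaled reads (RPM, log axis) of the 10 genes in the WT library (circles) and the MHC403 library (squares), joined by a line for each gene, with 1 pooled library per genotype. The MHC403 value is the higher of the pair in all 10 genes, as it is in most measured entries. The lines of the 3 lysyl oxidases are long, as is that of P4ha3, which rests on 11 reads against 1.

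The prolyl 4-hydroxylase alpha subunits were the group nearest to the bulk of the transcriptome. P4ha1, the main catalytic subunit in most tissues (mm9 chromosome 10, 58786044 to 58836052), had 321 reads in MHC403 and 170 in WT, which is 58.7 and 31.0 RPM, the reads scaled to the library total. Its ratio was 1.89 (1.57 to 2.29), higher than in 70.3% of measured entries. P4ha2, a second isoenzyme subunit with its own substrate preferences (chromosome 11, 53914426 to 53945169), had 206 reads against 156, or 37.7 and 28.5 RPM. This gave a ratio of 1.32 (1.07 to 1.64), below the median ratio of measured entries, and under median-of-ratios scaling it lay on the other side of 1, at 0.892 (0.721 to 1.11). P4ha3, an isoform usually found at low levels (chromosome 7, 107434030 to 107468209), had 11 reads in MHC403 and 1 in WT, a ratio of 11.0 with an interval from 1.60 to 475 that gives little precision. Set against each other, which removes any effect of scaling, the ratio of P4ha1 was 1.43 times that of P4ha2 (1.07 to 1.91). In reads of the family, P4ha1 took 52.0% in WT (46.4 to 57.5) and 59.7% in MHC403 (55.4 to 63.8), while P4ha2 took 47.7% (42.2 to 53.3) and 38.3% (34.2 to 42.5). The intervals of both shares overlapped between the libraries.

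P4ha1 and P4ha2 are known targets of the hypoxia-inducible factor HIF, whose core sites read ACGTG or GCGTG, and the readout counts transcript starts, so the bases upstream of the annotated start are shown for them and for Serpinh1. The sequences are the 250 bases before the start, 5′ to 3′ on the gene's strand, from RefSeq on GRCm38.p6, a build other than the mm9 of the counts, so the start was not matched to that of the table. They lie at chr10:59323046-59323295 (P4ha1, plus strand), chr11:54100674-54100923 (P4ha2, plus strand) and chr7:99353240-99353489 (Serpinh1, minus strand). Capitals mark each ACGTG or GCGTG, which on the other strand appears as CACGT or CACGC; no matches overlap.
P4ha1: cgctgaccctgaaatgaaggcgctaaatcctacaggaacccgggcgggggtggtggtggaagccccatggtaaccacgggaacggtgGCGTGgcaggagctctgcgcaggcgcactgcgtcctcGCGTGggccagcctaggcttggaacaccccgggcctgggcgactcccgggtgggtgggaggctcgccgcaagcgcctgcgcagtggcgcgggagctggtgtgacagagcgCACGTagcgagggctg
P4ha2: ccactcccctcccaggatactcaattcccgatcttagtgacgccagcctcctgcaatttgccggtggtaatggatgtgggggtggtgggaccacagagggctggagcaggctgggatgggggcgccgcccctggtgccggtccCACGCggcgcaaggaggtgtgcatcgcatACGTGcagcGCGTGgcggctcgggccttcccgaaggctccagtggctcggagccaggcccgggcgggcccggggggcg
Serpinh1: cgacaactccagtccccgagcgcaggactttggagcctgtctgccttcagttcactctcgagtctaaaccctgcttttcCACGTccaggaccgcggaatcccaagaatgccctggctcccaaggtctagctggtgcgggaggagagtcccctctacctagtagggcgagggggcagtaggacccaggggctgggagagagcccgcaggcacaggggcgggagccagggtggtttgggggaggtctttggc
The P4ha1 and P4ha2 stretches each held 3 matches and the Serpinh1 stretch 1. Of the stretches not printed, that of Plod3 held 4, the most of the 6 searched, and that of Plod1 held 1. Of the 6 genes of the set searched in the promoter table, 5 had at least 1 match (P4ha1, P4ha2, Plod1, Plod3 and Serpinh1), and P4ha3 had none. Of all 32851 promoters of the same length in that table, 38.6% held one or the other. The 6 stretches were richer in G and C, at 55.6% to 70%, than the median of all promoters, 52.4%. The GC box GGGCGG was likewise in 5 of the 6 and in 32.7% of all. Whether base composition accounts for the matches was not tested. The paired heat shock unit was searched as GAANNTTC and TTCNNGAA, both of which read the same on the 2 strands. TTCNNGAA was in the P4ha2 stretch alone of the 6 and in 7.17% of all promoters, and GAANNTTC was in none of the 6 and in 6.69% of all. A match is a string of letters and not a mapped site.

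Among the lysyl hydroxylases, Plod3 stood above the other two. Plod3, the isoform that also carries glycosyltransferase activity (chromosome 5, 137462889 to 137472516), had 327 reads in MHC403 and 107 in WT, or 59.8 and 19.5 RPM. The ratio was 3.06 (2.46 to 3.85), higher than in 90.2% of measured entries, and 2.06 (1.66 to 2.59) with median-of-ratios scaling. Plod1, which acts on lysines of the triple helix (chromosome 4, 147283862 to 147310885), had 490 reads against 286, or 89.6 and 52.2 RPM, a ratio of 1.72 (1.48 to 1.99). With median-of-ratios scaling the ratio of Plod1 was 1.16 (0.998 to 1.34), with an interval that holds 1. Plod2, which acts on the telopeptide lysines from which the hydroxylysine type of cross-link forms (chromosome 9, 92437061 to 92503265), had 82 reads against 55, or 15.0 and 10.03 RPM, a ratio of 1.49 (1.05 to 2.14). Plod2 thus lay at the median of all measured entries, with 50.6% of them below it, and its ratio under median-of-ratios scaling was 1.01 (0.707 to 1.44). The ratio of Plod3 was 1.78 times that of Plod1 (1.36 to 2.34) and 2.05 times that of Plod2 (1.33 to 3.13). By contrast, the interval of Plod1 over Plod2 held 1 (1.15, 0.776 to 1.69).

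The make-up of lysyl hydroxylase reads differed between the libraries accordingly. Plod3 took 23.9% of the family's reads in WT (20.01 to 28.1) and 36.4% in MHC403 (33.2 to 39.6), intervals that did not overlap. Plod1 took 63.8% in WT (59.2 to 68.3) and 54.5% in MHC403 (51.2 to 57.8), which did not overlap either, and Plod2 12.3% (9.38 to 15.7) and 9.12% (7.32 to 11.2), which did. These are shares of reads, not of transcripts, since the counting windows of the 10 genes span 200 to 800 bases. Plod3 starts inside Znhit1, a gene on the opposite strand, and the sources used here do not give whether the counting used strand. The windows of the 2 entries do not overlap in the table, and Znhit1 had 262 reads against 180, a ratio of 1.46 (1.20 to 1.77). In the same way B430319G15Rik lies across the start of Plod2 on the other strand, with 37 reads against 15 and a ratio of 2.47 (1.32 to 4.85), again with no shared window.

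**Figure D2:**
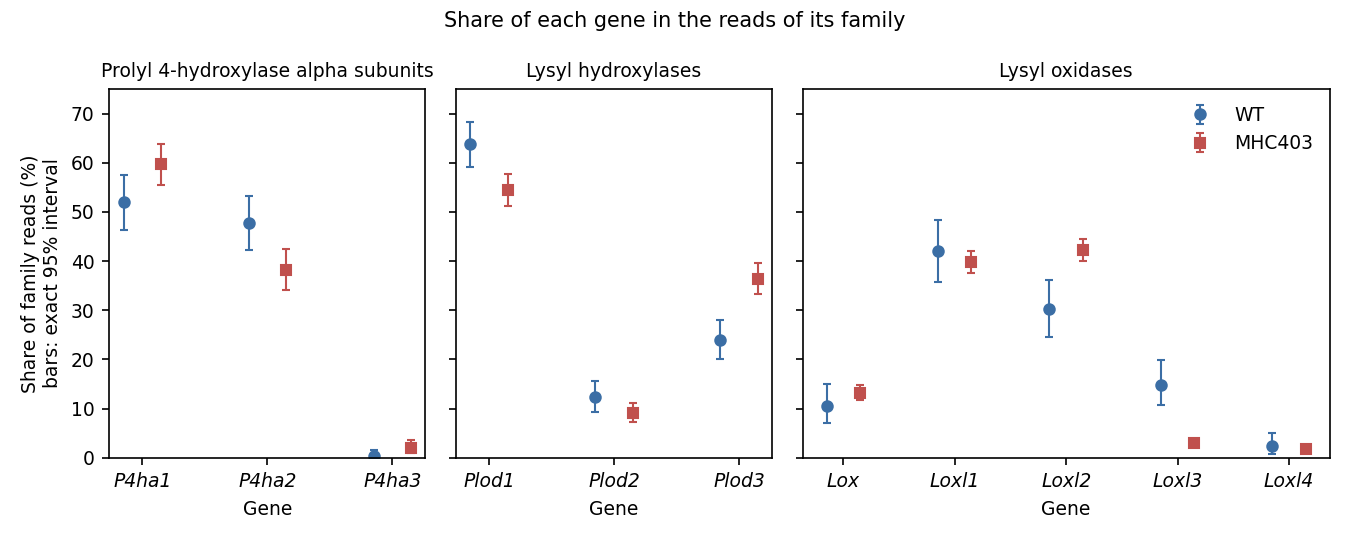
Share of each gene in the summed reads of its family (%, linear axis) in WT (circles) and MHC403 (squares), with exact 95% intervals as bars. Plod3 and Loxl2 took larger shares in MHC403 and Plod1 and Loxl3 smaller ones, with intervals that did not overlap.

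Serpinh1 (chromosome 7, 106493885 to 106501749) had 1419 reads in MHC403 and 539 in WT, or 259 and 98.3 RPM. Its ratio of 2.64 (2.39 to 2.92) was higher than in 86.4% of measured entries. With median-of-ratios scaling the ratio was 1.78 (1.61 to 1.97), under 2-fold with its whole interval still above 1. Serpinh1 has the most reads of the set and so the narrowest interval. General chaperones of the same compartment, which do not favour collagen, were lower in ratio. Of 13, all measured, 1 passed 2-fold upwards and none downwards, beside 26.1% and 2.43% of all measured entries. The median log2 ratio of the 13 was 0.72, and their summed ratio was 1.28 (1.24 to 1.33). The calcium-binding chaperone Calr was 1.72-fold (1.56 to 1.89) higher, the cochaperones Dnajc3 and Dnajb11 2.08-fold (1.55 to 2.80) and 1.79-fold (1.51 to 2.12), and the disulfide isomerase Pdia3 1.65-fold (1.43 to 1.91).

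The lysyl oxidases Lox, Loxl1 and Loxl2 were all several-fold higher in MHC403. Lox, the founding member of the family, on chromosome 18, had 256 reads in MHC403 and 27 in WT, or 46.8 and 4.93 RPM, a ratio of 9.50 (6.38 to 14.7). Loxl1, which is needed for the upkeep of elastic fibres (chromosome 9, 58135530 to 58161019), had 773 reads against 107, or 141 and 19.5 RPM, a ratio of 7.24 (5.91 to 8.95). Loxl2, a scavenger-receptor-domain member that cross-links type IV collagen and has been tied to cardiac fibrosis (chromosome 14, 70008936 to 70095641), had 821 reads against 77, or 150.1 and 14.05 RPM, a ratio of 10.7 (8.45 to 13.7). These ratios were higher than in 98.6%, 98.0% and 98.8% of measured entries, respectively. With median-of-ratios scaling they were 6.41, 4.88 and 7.20, and the lowest bound of the 3 intervals was 3.98, for Loxl1. Loxl2 and Loxl1 differed from each other slightly (1.48, 1.07 to 2.04), and the interval of Lox against each of them held 1 (0.831 to 2.13 over Loxl1, and 0.681 to 1.81 for Loxl2 over Lox).

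Loxl2 counts carry a limit of their own. The GENCODE annotation of GRCm38 lists Gm21451, an unprocessed pseudogene on the same chromosome, and 74.7% of the 36-base words in the first 400 bases of Loxl2 transcripts also occur in it. Reads of the 2 loci may not be separable, and the sources used here do not give how reads with several matches were treated. Without Loxl2, Lox and Loxl1 summed to 1029 reads against 134, a ratio of 7.70 (6.42 to 9.28). No word of the first 400 bases of Lox, Loxl1, Serpinh1, Plod1 or the 3 P4ha genes was found in another gene's transcripts. Plod2 shared 76.6% of its words with Gm38391 and Plod3 24.5% with Znhit1, loci that overlap them on the opposite strand, so without strand these reads cannot be told apart either.

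The other 2 genes of the family differed from one another, the ratio of Loxl4 being 3.96 times that of Loxl3 (1.46 to 12.6). Loxl3, a close relative of Loxl2, had 57 reads in MHC403 and 38 in WT, a ratio of 1.503 (0.980 to 2.33) with an interval that includes 1. Loxl4 had 36 against 6, a ratio of 6.01 (2.51 to 17.5), too few reads to be called measured. The ratios of Lox, Loxl1 and Loxl2 were 6.28 times (3.43 to 11.7), 4.80 times (2.95 to 7.77) and 7.08 times (4.28 to 11.7) that of Loxl3. Loxl3 took 14.9% of the family's reads in WT (10.8 to 19.9) and 2.93% in MHC403 (2.23 to 3.78), while Loxl2 went from 30.2% (24.6 to 36.2) to 42.3% (40.0 to 44.5). The shares of Lox (10.6% and 13.2%) and of Loxl1 (42.0% and 39.8%) had overlapping intervals.

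**Figure D3:**
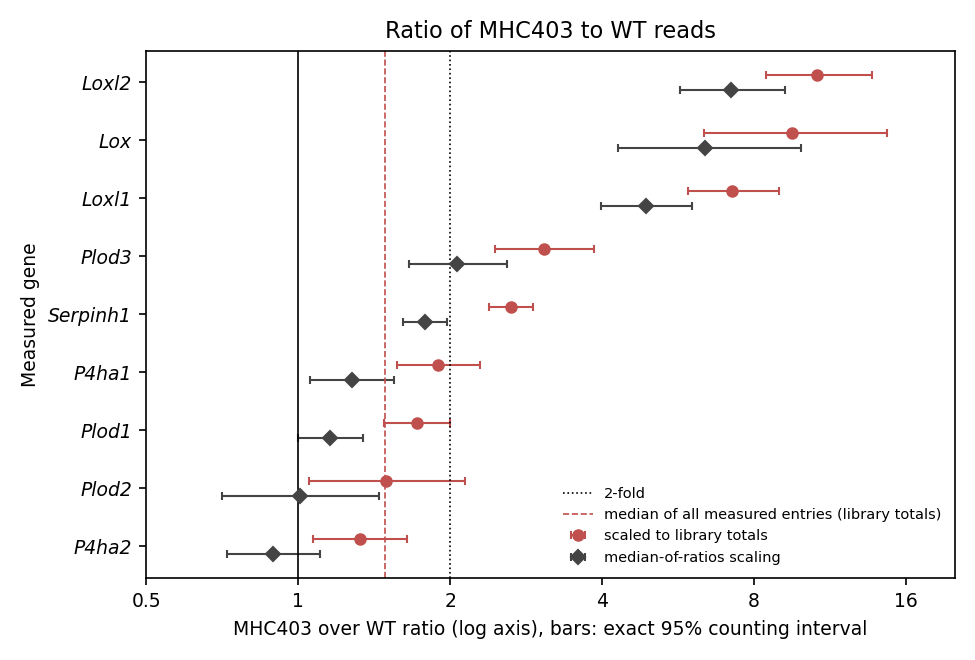
Ratio of MHC403 to WT reads (log axis) of the 9 measured genes, scaled to library totals (circles) and by median of ratios (diamonds), with exact 95% counting intervals; lines mark a ratio of 1, 2-fold, and the median of all measured entries under library totals (1.48). The 3 lysyl oxidases lie apart from the other genes under both scalings, and P4ha2 lies on opposite sides of 1.

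In order of ratio the measured genes ran Loxl2, Lox, Loxl1, Plod3, Serpinh1, P4ha1, Plod1, Plod2 and P4ha2. Of the 8 pairs of neighbours in this order, 2 differed beyond counting error. The ratio of Loxl1 was 2.36 times that of Plod3 (1.73 to 3.22), and the ratio of Serpinh1 was 1.39 times that of P4ha1 (1.12 to 1.73). In this order the steps fell between the lysyl oxidases and Plod3, and between Serpinh1 and the remaining hydroxylases. Those hydroxylases were all under 2-fold, and among them P4ha1 and P4ha2 also differed. The neighbours were ordered by the same ratios that are compared, which the intervals do not take into account. Nor are the intervals adjusted for the number of pairs compared, 16 within families, 8 of neighbours and 6 of classes. Summed by class, reads of the 3 lysyl oxidases were 8.79-fold (7.62 to 10.2) higher, those of Serpinh1 2.64-fold, those of the lysyl hydroxylases 2.01-fold (1.79 to 2.26) and those of the prolyl 4-hydroxylase subunits 1.65-fold (1.43 to 1.90). Comparisons of classes with each other are independent of scaling. The ratio of the lysyl oxidases was 5.33 times that of the prolyl 4-hydroxylase subunits (4.35 to 6.53) and 3.33 times that of Serpinh1 (2.79 to 3.98).

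Summed reads of the fibrillar collagens, the main substrates, had a higher ratio than any class of the enzymes. Where 26.1% of all measured entries passed 2-fold upwards, 7 of 9 fibrillar collagen chains were measured and all 7 passed. The median log2 ratio of the 7 was 4.09. Together they had 15198 reads in MHC403 and 856 in WT, a ratio of 17.8 (16.6 to 19.1), led by Col1a1 (4914 reads against 188), Col3a1 (4088 against 207), Col1a2 (4034 against 264) and Col5a2 (577 against 34). Col5a3 was lower in ratio than the summed lysyl oxidases, at 4.36 (3.30 to 5.85), as was elastin, Eln, the other substrate of these enzymes, at 4.08 (3.42 to 4.88); both were named after their values were seen. Col11a1, chosen after its values were seen, had 77 reads against 0, a ratio of 25.7 when WT is set to a floor of 3 counts, and its counting interval starts at 20.4. For each 100 reads of these chains, Serpinh1 had 63.0 reads in WT (56.4 to 70.2) and 9.34 in MHC403 (8.84 to 9.86), which is 6.74-fold (5.96 to 7.62) lower. The prolyl 4-hydroxylase subunits went from 38.2 (33.5 to 43.4) to 3.54 (3.24 to 3.86), 10.8-fold (9.22 to 12.6) lower. The lysyl hydroxylases went from 52.3 (46.6 to 58.7) to 5.92 (5.52 to 6.33), 8.85-fold (7.73 to 10.1) lower. The lysyl oxidases went from 24.6 (21.1 to 28.7) to 12.2 (11.6 to 12.8), 2.02-fold (1.72 to 2.38) lower, and 2.31-fold (1.89 to 2.81) lower without Loxl2. These read ratios do not depend on library scaling. They are lower by construction for any entry with a ratio under the 17.8 of the summed chains. The median ratio of all measured entries was 1.48, so a fall per collagen read is not particular to these classes. In WT the summed Lox, Loxl1 and Loxl2 had the fewest reads per 100 collagen reads of the 4 classes, and in MHC403 the most. The classes differ in number of genes and in window size, so this order is one of reads, not of transcripts. Single genes ranged widely within a class: per collagen read Plod3 was 5.81-fold (4.57 to 7.33) lower and Plod1 10.4-fold (8.78 to 12.2), and P4ha2 was 13.4-fold (10.7 to 16.8) lower, while the interval of P4ha3 held 1.

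**Figure D4:**
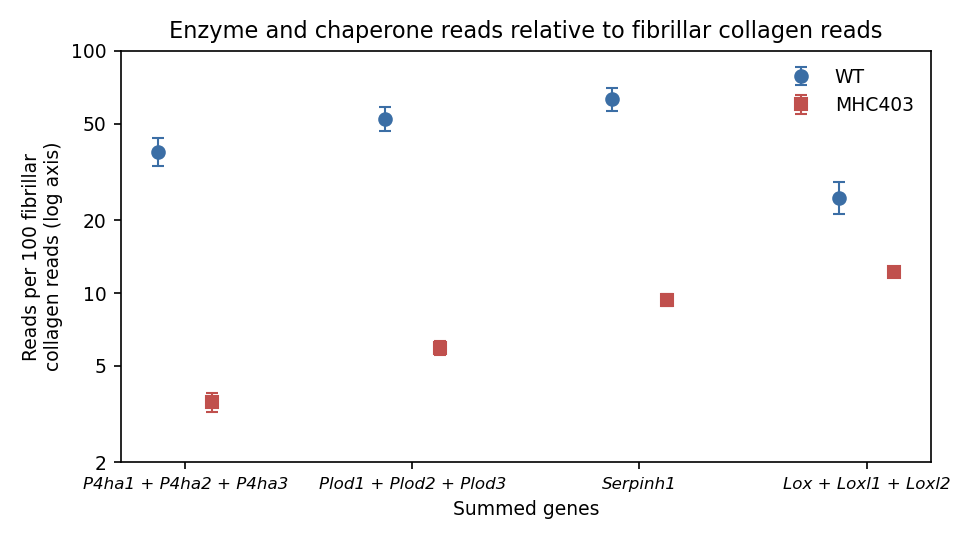
Summed reads of each class for every 100 reads of the 7 measured fibrillar collagen chains (log axis) in WT (circles) and MHC403 (squares), with exact 95% intervals, which for some squares are smaller than the symbol. All 4 classes are lower in MHC403, from 2.02-fold for the lysyl oxidases to 10.8-fold for the prolyl 4-hydroxylase subunits. Any entry with a ratio under that of the summed chains, 17.8, is lower on this scale.

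Other genes of collagen maturation lay nearer to Serpinh1. Of 15 further modifiers and partners in the endoplasmic reticulum 12 were measured, with a median log2 ratio of 1.32. Of the 12, 9 passed 2-fold upwards and none downwards, beside 26.1% and 2.43% of all measured entries. Of those 9, 5 had under 50 reads in WT and so were measured through the MHC403 library only. With median-of-ratios scaling 1 of the 12 modifiers was at least 2-fold higher, beside 10.5% of all measured entries. That one was Fkbp10, a prolyl isomerase that assists lysyl hydroxylation, with 146 reads against 27 and a ratio of 5.42 (3.58 to 8.50). P4hb, the disulfide isomerase that forms the beta subunit of prolyl 4-hydroxylase, had 1793 reads against 712, a ratio of 2.52 (2.31 to 2.76), above those of its partners P4ha1 and P4ha2. Ppib and Crtap, which form the prolyl 3-hydroxylation complex with Lepre1, had ratios of 2.69 (2.33 to 3.12) and 2.93 (2.01 to 4.35). The 3 measured genes within 2-fold, named after their values were seen, were the collagen galactosyltransferase Glt25d1, the cation channel Tmem38b and Leprel4.

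Genes of procollagen export from the endoplasmic reticulum lay at the level of the whole transcriptome, and those of extracellular processing above it. Of all measured entries 26.1% passed 2-fold upwards, and 10.5% with median-of-ratios scaling. Of 13 export genes 11 were measured and 3 passed 2-fold upwards (1 with median-of-ratios scaling), the median log2 ratio being 0.55. They were Creb3l1, a transcription factor of the secretory pathway (83 reads against 17, 4.89-fold, 2.88 to 8.80), and the COPII coat genes Sec24d (2.57-fold, 1.98 to 3.36) and Sec13 (2.33-fold, 1.94 to 2.82); the coat gene Sec31a was 1.84-fold (1.62 to 2.09) higher. Of 10 genes of propeptide processing 4 were measured and all 4 passed 2-fold upwards (3 with median-of-ratios scaling), the median log2 ratio being 2.19. Adamts2, which removes the amino-terminal propeptide, had 358 reads against 22 and a ratio of 16.3 (10.6 to 26.4), the largest of that list. Pcolce, which enhances removal of the carboxy-terminal propeptide, was 6.02-fold (5.02 to 7.26) higher, its relative Pcolce2 2.01-fold (1.58 to 2.58), and the proteinase Bmp1, which also activates Lox, 3.47-fold (2.65 to 4.61), though the windows of Bmp1 overlap another entry. Among 9 other lysyl oxidases and matrix partners of them 8 were measured and 7 passed 2-fold upwards (6 with median-of-ratios scaling), with Loxl3 the exception, and the median log2 ratio was 2.69. Periostin, Postn, which supports activation of Lox, was 58.2-fold (37.1 to 97.0) higher, fibronectin, Fn1, whose windows overlap other entries, 13.7-fold (11.5 to 16.3), the fibril-bound proteoglycan fibromodulin, Fmod, 8.59-fold (3.92 to 22.3) and Sparc, an extracellular collagen chaperone, 6.59-fold (6.14 to 7.08). Of the genes counted as higher, 1 of the 3 export genes, 1 of the 4 processing genes, 3 of the 7 in the lysyl oxidase and partner list and 2 of the 7 collagen chains had under 50 reads in WT.

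Relatives of the hydroxylases that do not act on collagen showed a lower distribution. Of 11 other 2-oxoglutarate-dependent hydroxylases 10 were measured, with a median log2 ratio of 0.06 against 0.57 for all measured entries. Of the 10, 2 were at least 2-fold higher and 1 at least 2-fold lower, beside 26.1% and 2.43% of all measured entries. Of the 2 that were higher, 1 had under 50 reads in WT. With median-of-ratios scaling 0 were higher and 2 lower, beside 10.5% and 7.91% of all. The oxygen sensor Egln3, itself induced by HIF, was 2.13-fold (1.83 to 2.48) higher and Egln2 1.77-fold (1.48 to 2.12), while Tmlhe, of carnitine synthesis, was 3.39-fold (2.15 to 5.53) lower and Phyh, of peroxisomal oxidation, 1.53-fold (1.41 to 1.67) lower. Genes of the hypoxia response, a programme to which P4ha1, P4ha2, Plod2, Lox and Loxl2 are known to belong, lay near the bulk. Of 13 listed 10 were measured, the median log2 ratio being 0.71 against 0.57 for all measured entries. Of the 10, 3 passed 2-fold upwards, beside 26.1% of all measured entries, and 1 of the 3 had under 50 reads in WT. With median-of-ratios scaling none of the 10 was higher and 1 was lower, beside 10.5% and 7.91% of all. Kdm3a was 2.49-fold (1.78 to 3.52) higher, the glucose transporter Slc2a1 2.18-fold (1.74 to 2.75), Ero1l 2.82-fold (1.71 to 4.83) and Pgk1 1.95-fold (1.77 to 2.14). Vegfa and Higd1a, named after their values were seen, were lower, with ratios of 0.735 (0.676 to 0.799) and 0.856 (0.778 to 0.941).

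**Figure D5:**
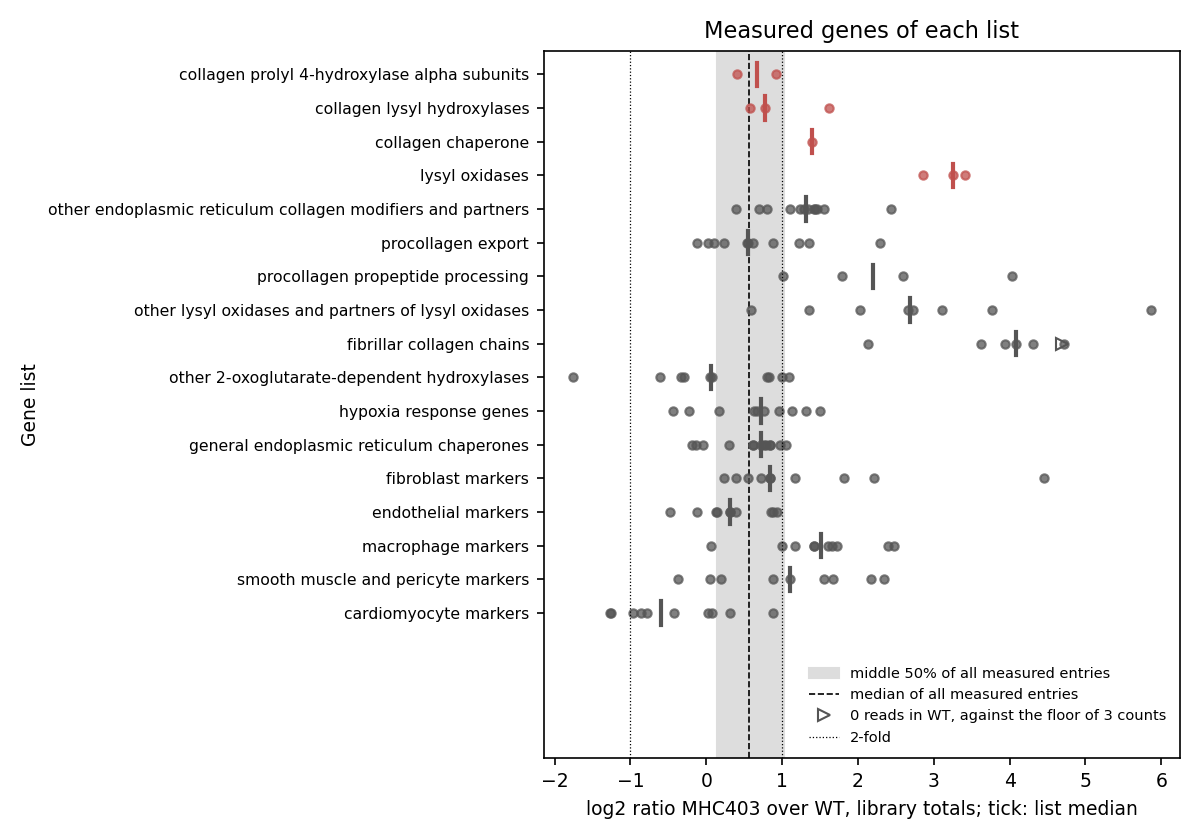
The log2 ratio of MHC403 over WT (library totals) of every measured gene in each list, with a tick at the list median; the band and dashed line show the middle 50% and the median of all measured entries, and the open triangle is Col11a1 against the floor of 3 counts. Lysyl oxidases lie beside the processing and matrix partner lists, and the measured hydroxylases other than Plod3 lie within the band.

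The hearts were sequenced whole, so more cells of a type and more RNA per cell cannot be told apart. The labelled tissue was checked by its defining genes, with none of the 10 cardiomyocyte markers at 0 in either library, with 49325 RPM summed in MHC403 and 74289 in WT. All 10 fibroblast markers were measured, and 4 passed 2-fold upwards (3 with median-of-ratios scaling), beside 26.1% (10.5%) of all measured entries. Of the 4, Mfap5 was measured through MHC403 only, with 28 reads in WT. The median log2 ratio of the 10 markers was 0.84. Their summed level was 1865 RPM in MHC403 and 1074 in WT, a ratio of 1.74 (1.68 to 1.79). Most of it was Gsn (4275 reads against 3263, a ratio of 1.31) and Dcn (2976 against 1666), so the sum of the fibroblast list largely follows them. Gsn was named after its values were seen. Within that list the ratios ran from 1.18 for Ddr2 to 21.9 for Mfap5, with Dcn at 1.79 (1.69 to 1.90), Pdgfra at 2.25 (1.81 to 2.80), Lum at 3.51 (2.55 to 4.91) and Pi16 at 4.64 (4.03 to 5.37); Ddr2 and Dcn were named after their values were seen. Of 10 macrophage markers 9 were at least 2-fold higher, 5 of them measured through MHC403 only, and 5 with median-of-ratios scaling, where the shares of all measured entries are 26.1% and 10.5%, with a summed level of 667 and 222 RPM. Of 10 endothelial markers none was, with 688 and 536 RPM, and of the smooth muscle and pericyte list 5 of 9 measured were (3 with median-of-ratios scaling), with 7206 and 1683 RPM, most of it Des, which myocytes also express. None of these markers was at 0 in either library. The ratios of Lox, Loxl1 and Loxl2 were above the summed ratio of each of the 5 marker lists. The intervals of P4ha1, Plod1 and Plod2 held the summed ratio of the fibroblast list. The part of cell numbers in any of these values was not tested.

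A start-site score is given for each gene in the authors' deposited table, though the sources used here do not give its formula. In the authors' deposited table Lox scored 41, and 164 of the 10483 entries with at least 20 reads in both libraries (1.56%) scored that high or higher. In the authors' deposited table P4ha1 and Serpinh1 scored 7, Loxl1 scored 1 and the other 6 genes scored 0, as did 65.3% of those entries. P4ha3, 1 of the 6, has too few reads to be among those entries, and no entry with under 20 reads in a library scored above 0. The table annotates 2 starts for Lox, P4ha2, P4ha3 and Loxl2 and 1 for each of the other 6 genes. It holds 1 read count per gene over all its starts, so values of single starts were not analysed here.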

How the data were processed

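RNA of hearts was sequenced in 2 libraries, 1 pool of animals per genotype, so replicates were pooled per the series' design text. The submitters' processing notes name TopHat 1.0.14 and mm9; a counting program is not stated there. Read counts per gene, not normalized, over windows at and after annotated starts were deposited by the authors, per the file headers. The normalized reads deposited by the authors matched RPM over all listed entries (largest difference in the MHC403 library 4.05e-06). The fold in the authors' deposited table is the ratio of these RPM. The p-value in the authors' deposited table has no stated test and was not used. The score in the authors' deposited table was copied as given. Starts are written 1-based. All columns of counts belonged to the 2 libraries.

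Samples were grouped by the genotype label. With 1 library per genotype no test was made. Ratios of reads scaled to library totals, read shares and ratios between genes (conditional odds ratios) were given exact 95% intervals (scipy 1.17.1), which take in no amplification, pooling or animal-to-animal error, as reads carry no molecular identifiers. With 50 reads on both sides, a ratio of 1 has an interval of 0.662 to 1.51. Calls needed 50 reads in the higher library and 2-fold. Alternatives were median-of-ratios and TMM (edgeR 4.0.16) scaling, totals without mitochondrial entries, minimums of 1, 20 and 200 reads, a 1.5-fold threshold, the counting interval alone, and 3 collagen chains as denominator; leaving out Loxl2 was added after the data were seen. The interval script was tested on simulated data. The genes and lists were chosen with earlier results of these data known. From each list up to 4 measured genes were named, those whose interval had its nearer bound farthest from 1. No likeness to other genes was computed, as 2 libraries give 1 ratio. Promoters, matched by symbol, were searched for 6 of 10 genes. The Plod3 stretch overlaps exons of Znhit1 and is not printed.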

Additional observations from a re-analysis of the deposited data

How the results depend on the processing

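Each library is a single pool, so depth limits what can be said: Lox rests on 27 WT reads, P4ha3 on 1 and Plod2 on 55, and no alternative addresses variation between animals. Of the 9 measured genes 5 passed 2-fold upwards, beside 26.1% of all measured entries. This count was 4 with median-of-ratios or TMM scaling, beside 10.5% and 10.9% of all, and 4 of 8 without Loxl2. It was 5 without mitochondrial entries in the totals (16.1% of all), 5 with 20 reads as minimum and 5 of 8 with 200. With no minimum the count was 6 of 10, the added gene being P4ha3 with 11 reads against 1. Shares of all entries at these other minimums are not given here. The count was 7 at 1.5-fold, which 49.1% of all measured entries passed. It was 9 when a counting interval wholly above 1 was enough, as it was for 63.2% of all measured entries. The count of genes at least 2-fold lower was 0 in each of these settings. The median log2 ratio of 1.40 was 0.83 with median-of-ratios, 0.85 with TMM, 1.11 without mitochondrial entries, 1.16 without Loxl2 and 1.51 with 200 reads or no minimum. The log2 ratio of P4ha2, 0.40, was reversed to -0.16 under median-of-ratios scaling and to -0.14 under TMM, by construction, since these lower every log2 ratio by 0.57 and 0.55; the other 9 genes kept a ratio above 1 under the 3 scalings tried. Per fibrillar collagen read, the log2 difference with Col1a1, Col1a2 and Col3a1 alone was -3.59 for prolyl 4-hydroxylase subunits, -3.30 for lysyl hydroxylases, -2.91 for Serpinh1 and -1.17 for lysyl oxidases, each within the counting interval of the value reported; that of the lysyl oxidases with all 7 chains but without Loxl2 was -1.21. No paired analysis was possible because each genotype had 1 library.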
